A study of Mus musculus with 4 samples.

Results

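The genes Sox4, Sox6, Sox7, Sox9, Sox13, Nfia, Nfib, Zeb1, Zeb2 and Meox2 encode transcription factors that direct cell fate during development. The 10 genes were chosen from their PHF2 peaks in these same libraries, out of 21887 protein-coding genes. Their peak counts, widths and heights are therefore given as a description, with no test. Peaks were assigned to a gene when they overlapped its RefSeq body in mm10 or the 5 kb on either side. By that rule the 10 genes held 8 of the 161 peaks given by a PHF2 antibody in KO muscle and 16 of the 1621 in Ctrl muscle. All of these peaks touched the gene body itself, and the nearest peak outside the windows was a Ctrl PHF2 peak 32.9 kb from Nfib. The 10 genes held no peak in either library made with IgG, a non-specific antibody that measures background.

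The assay was CUT&RUN, which uses an antibody to bring a nuclease to its target so that the DNA around it is cut free. It was run on gastrocnemius (the main muscle of the calf) from male C57BL/6 mice aged 4 weeks. KO muscle was Phf2 flox/flox with Acta1 Cre, and Ctrl muscle was Phf2 flox/flox without Cre, so all mice carried the floxed alleles. The Acta1 gene is a muscle fibre gene, so a Cre driven by it does not target the endothelial, immune, connective tissue and satellite cells of the muscle. Each genotype gave 1 PHF2 library and 1 IgG library, so every difference between KO and Ctrl below compares single libraries, has no replicate check and carries no p-value. Read totals are unknown. The number of sequenced tags at each PHF2 summit, the highest point of a peak, was solved from the deposited fold enrichment together with its -log10 p. Intervals are at 95% and cover counting error alone. Peak lists do not measure RNA or protein, so neither the loss of PHF2 nor the cell types in the muscle was checked by them. Of 7 muscle fibre marker genes, only Pvalb, which encodes a calcium buffer of fast fibres, had a peak, in the Ctrl PHF2 list at a fold enrichment of 5.05. None of the markers of satellite cells, fibro-adipogenic cells, smooth muscle with pericytes or Schwann cells (5 genes each) had a peak in any list. Over all protein-coding genes, 7.38% had a Ctrl PHF2 peak and 0.713% a KO PHF2 peak. Counts this low in short lists lie near those shares, so nothing on cell types is drawn from them.

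SOX proteins bind and bend DNA through an HMG box. NFI proteins bind as dimers to a palindrome built on TTGGC. ZEB proteins carry clusters of zinc fingers that bind E-boxes, and they repress epithelial genes through the corepressor CtBP. MEOX2 is a homeodomain protein needed for normal limb muscle formation in the mouse. PHF2 has a PHD finger, which binds the methylated histone tails found at active promoters, and a JmjC domain of the histone demethylase family.

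In the KO PHF2 list 6 of the 10 genes had a peak, against 0.713% of all protein-coding genes. In the Ctrl PHF2 list 9 of the 10 had one, against 7.38% of all. KO IgG and Ctrl IgG peaks lay in the same window at 0.155% and 0.0640% of all genes, and at 0 of these 10. The genes run from 4.78 kb (Sox4) to 570 kb (Sox6) in length, and a longer gene gives a peak more room. Among all genes of at least 100 kb, a class that holds 5 of the 10, 2.35% had a KO PHF2 peak and 17.1% a Ctrl PHF2 peak. Sox4, Nfia, Nfib, Zeb2 and Meox2 had peaks in both PHF2 lists, as did 0.576% of all genes. Sox6, Sox7, Sox9 and Zeb1 had peaks in Ctrl and none in KO. So did most genes with a Ctrl peak, since 7.38% of all genes had one and 0.576% had both. Sox13 had a peak in KO and none in Ctrl, as did 0.137% of all genes. These percentages describe the whole table, and since the genes were chosen on their peaks nothing is inferred from the contrast.

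**Figure D1:**
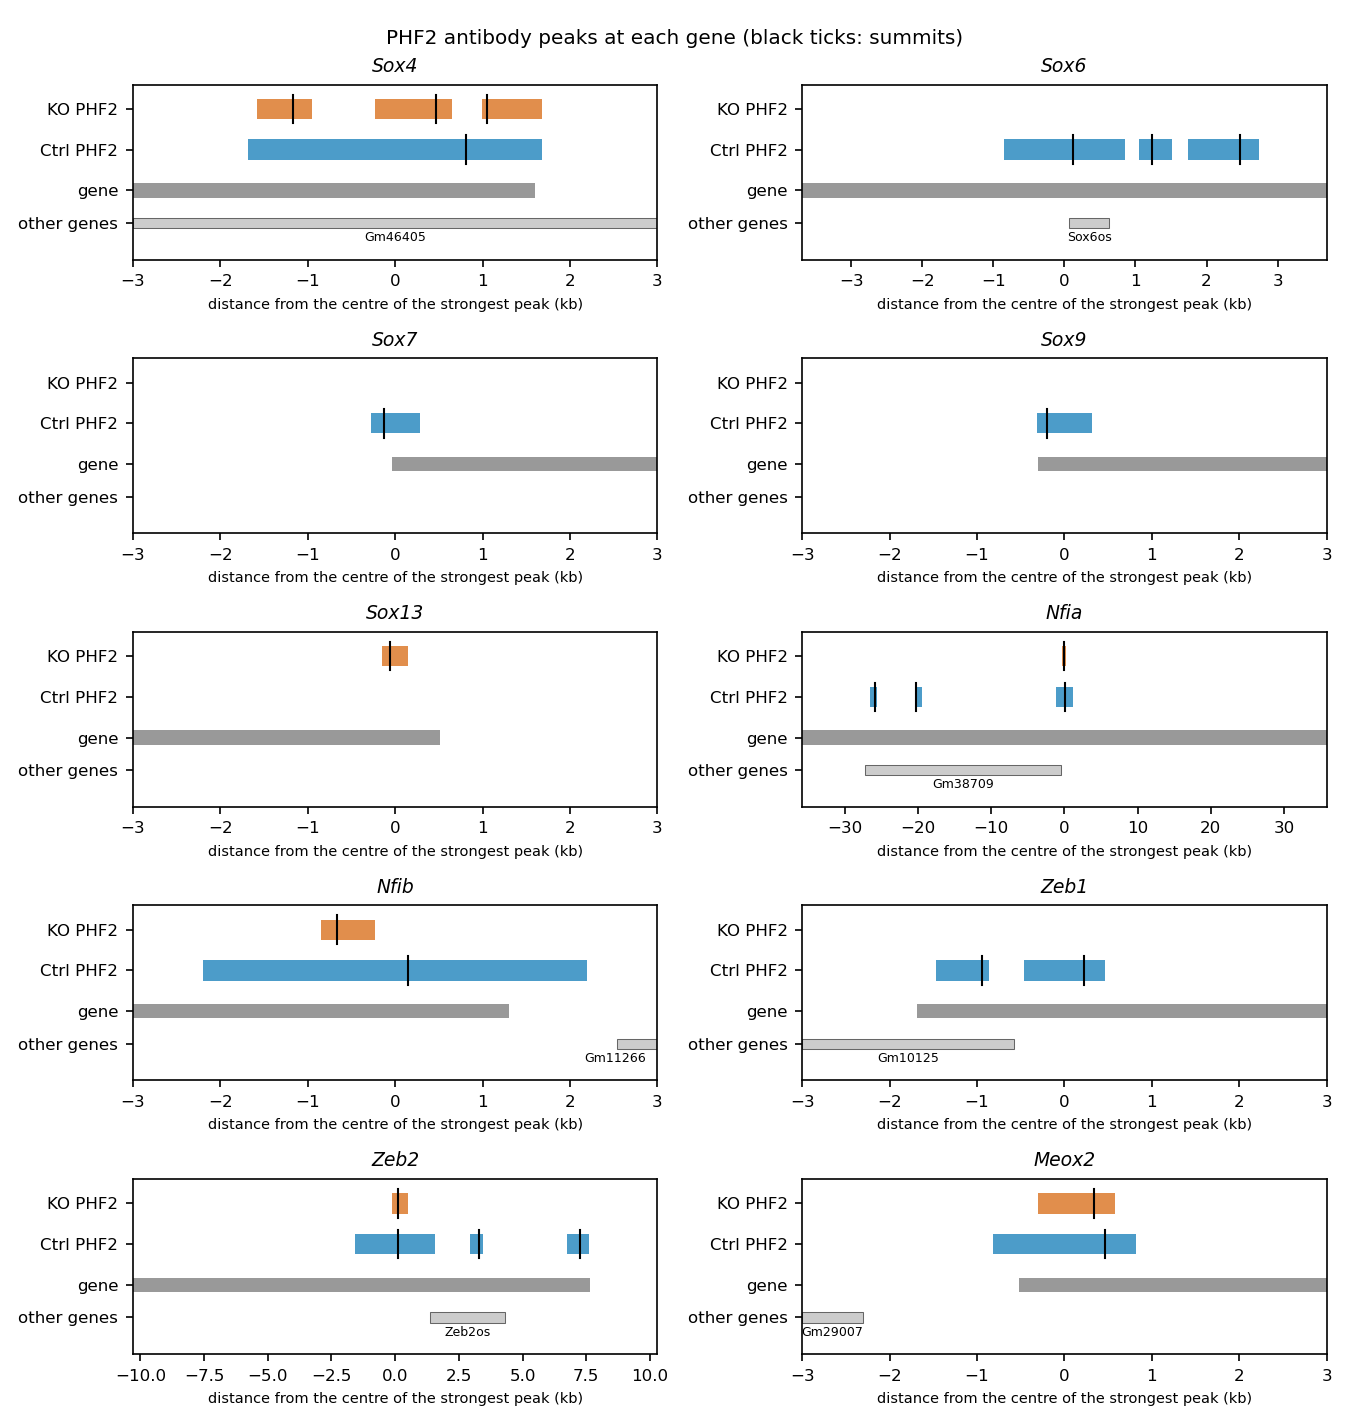
KO PHF2 peaks (orange, upper row) and Ctrl PHF2 peaks (blue, lower row) at the 10 genes, against distance in kb from the centre of the Ctrl peak of highest fold enrichment (at Sox13, of the KO peak). Black ticks are summits, dark grey bars the gene bodies and light grey bars other annotated genes, all running off the panel where they are longer. At Sox4, Nfia, Nfib, Zeb2 and Meox2 the KO peaks lie wholly inside a wider Ctrl peak.

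Annotated transcription starts under these peaks are shown first, because the position of a peak relative to a start, and the CpG content of that start, differ among the genes. The RefSeq promoter table for GRCm38.p6, the assembly behind mm10, held starts for Sox4, Sox6, Sox13, Nfia, Zeb2 and Meox2. Each sequence below covers 250 bases before to 50 after a start, 5′ to 3′ on the strand of the gene, with CpG dinucleotides in capitals. The pair from Sox6 sets a start under a peak beside one 35736 bp from the nearest Ctrl peak. These held 13 and 2 CpG dinucleotides, while another Sox6 start window outside the peaks held 11.
Sox4 start (chr13:28953650-28953949, minus strand): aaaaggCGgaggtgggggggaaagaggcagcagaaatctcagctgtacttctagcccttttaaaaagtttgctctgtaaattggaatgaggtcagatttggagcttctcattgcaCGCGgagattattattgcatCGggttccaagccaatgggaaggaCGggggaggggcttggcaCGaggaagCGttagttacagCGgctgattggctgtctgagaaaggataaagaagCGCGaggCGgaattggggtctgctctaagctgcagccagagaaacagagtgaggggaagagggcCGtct
Meox2 start (chr12:37108290-37108589, plus strand): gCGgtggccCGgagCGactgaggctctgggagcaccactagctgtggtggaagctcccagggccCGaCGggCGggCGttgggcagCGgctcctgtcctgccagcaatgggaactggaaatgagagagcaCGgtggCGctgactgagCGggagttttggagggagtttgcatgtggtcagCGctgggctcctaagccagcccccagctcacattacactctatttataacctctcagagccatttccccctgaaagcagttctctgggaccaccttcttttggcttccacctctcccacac
Zeb2 start under its main peak (chr2:45110228-45110527, minus strand): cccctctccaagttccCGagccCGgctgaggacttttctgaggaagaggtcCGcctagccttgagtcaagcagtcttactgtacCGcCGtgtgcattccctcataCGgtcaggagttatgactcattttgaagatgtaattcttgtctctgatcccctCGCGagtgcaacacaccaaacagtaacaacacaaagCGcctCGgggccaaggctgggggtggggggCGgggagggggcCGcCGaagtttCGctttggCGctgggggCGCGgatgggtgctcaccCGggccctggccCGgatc
Sox6 start under a peak (chr7:116030998-116031297, minus strand): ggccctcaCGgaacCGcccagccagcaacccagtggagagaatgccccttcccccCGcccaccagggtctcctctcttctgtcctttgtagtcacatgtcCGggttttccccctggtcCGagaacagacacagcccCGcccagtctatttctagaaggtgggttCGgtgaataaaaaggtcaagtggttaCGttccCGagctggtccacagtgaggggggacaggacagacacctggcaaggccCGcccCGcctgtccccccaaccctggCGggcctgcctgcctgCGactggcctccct
Sox6 start away from any peak (chr7:115995037-115995336, minus strand): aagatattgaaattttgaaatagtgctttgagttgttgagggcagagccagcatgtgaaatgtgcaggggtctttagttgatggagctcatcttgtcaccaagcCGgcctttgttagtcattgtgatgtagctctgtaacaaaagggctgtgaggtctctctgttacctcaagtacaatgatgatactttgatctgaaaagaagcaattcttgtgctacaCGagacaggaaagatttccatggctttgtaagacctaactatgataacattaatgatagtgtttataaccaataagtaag
Sox13 start (chr1:133424163-133424462, minus strand): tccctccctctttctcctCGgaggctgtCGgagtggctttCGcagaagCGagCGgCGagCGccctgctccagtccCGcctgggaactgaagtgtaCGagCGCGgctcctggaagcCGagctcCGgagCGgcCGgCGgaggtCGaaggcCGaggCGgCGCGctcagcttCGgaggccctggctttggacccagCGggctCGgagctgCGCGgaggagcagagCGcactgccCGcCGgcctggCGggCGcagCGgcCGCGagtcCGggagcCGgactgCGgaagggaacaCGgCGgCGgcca

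The start windows that touched a PHF2 peak held fewer CpG dinucleotides than most such windows under Ctrl peaks, and about as many as start windows in general. The Sox4 window had 12, the Meox2 window 12, the Zeb2 window under its main peak 19 and the Sox6 window under a peak 13. The other 3 Zeb2 start windows, which touch smaller Ctrl peaks at their edges, had 8, 8 and 9. All 7 lay under the lower quartile of 21 for the 808 start windows of protein-coding genes that overlapped a Ctrl PHF2 peak, whose median was 29. The median over all 21263 start windows of protein-coding genes was 13, with quartiles of 4 and 24. Within Sox6, the 5 start windows away from any peak had 11, 4, 2, 2 and 2. The single listed Nfia start, at 97581943, had 2 and no peak nearer than 169379 bp in Ctrl. The annotated Nfia body begins before it, at 97578066, so at least 1 Nfia start is missing from the promoter table. The minus-strand bodies of Sox6 and Sox13 likewise extend to 116040776 and 133424459, past their outermost listed starts at 116038744 and 133424212. Sox13 stood at the other extreme with 40 CpG dinucleotides and 73.3% G and C, and its KO peak ended 72 bp short of that window. The DNA under the summits themselves was not analysed here.

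**Figure D2:**
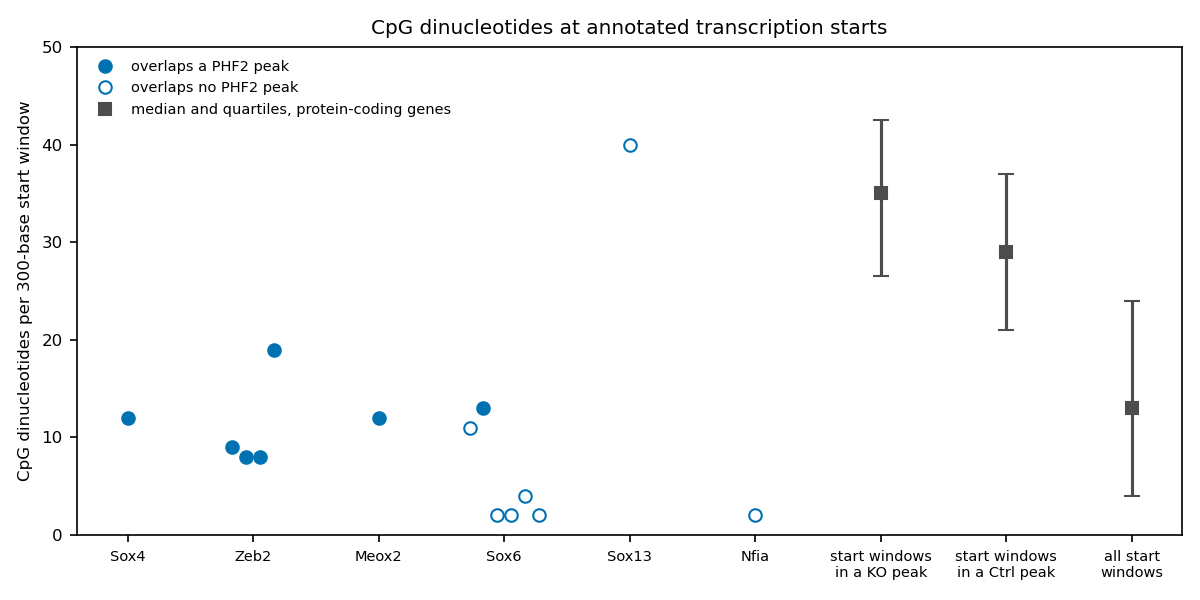
CpG dinucleotides in 300-base windows at each listed start of 6 of the genes, filled where the window overlaps a PHF2 peak, beside the median and quartiles for start windows of protein-coding genes (squares with bars). Filled points run from 8 to 19, below the quartile range of windows in a Ctrl peak (21 to 37), and the Sox13 window stands at 40.

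Motif matches in these windows are given beside the share of all start windows that hold the motif. Motifs were searched on both strands, and no match says only that the letters are not in the window. CACCTG, the E-box that ZEB proteins bind, was found only in the Sox6 window under a peak, at base -20 from the start, and in 20.2% of all 32851 start windows in the table. TTGGCA, a part of the NFI palindrome, lay at base -79 of Sox4, and was also in 2 of the Zeb2 windows, which overlap each other, and in 1 Sox6 window without a peak (14.1% of all). CATTGT, a SOX-type motif, was in the Nfia window and in 2 of the 6 Sox6 windows, none of them at a peak (12.6% of all). The Zeb2 window under the main peak held TGANTCA, the AP-1 motif, at 2 places (7.81% of all), a motif found in no other window of the 6 genes. CCAAT, in 37.4% of all, was found 4 times in the Sox4 window, 4 times in a Sox6 window without a peak, and also in a Zeb2 window, the Nfia window and 2 more Sox6 windows without a peak. GGGCGG, the Sp-type box, was in the Sox6 window under a peak (4 times), 3 Zeb2 windows and the Meox2 window (35.7% of all). The remaining motifs were TATAAA, found in the Meox2 window and in 2 Sox6 windows without a peak (13.6% of all), and TAATTA and TGACGTCA, found in none of the 14 windows of the 6 genes (5.29% and 1.79% of all).

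Sox4 encodes a SoxC factor that acts in progenitor cells of many tissues. The gene (Gene ID 20677, chromosome 13, 28948919 to 28953699, minus strand) has 1 annotated start. In KO muscle it held 3 separate peaks of 630, 882 and 690 bp, with fold enrichments of 7.96, 6.35 and 5.80 and 16, 24 and 19 summit tags. In Ctrl muscle it held a single peak of 3366 bp, running from 28950422 to 28953787. Its fold enrichment was 13.9, and its summit held 36 tags, for which the exact Poisson interval was 25.2 to 49.8. That Ctrl peak covered 3278 bp of the gene, with its summit 784 bp past the start, and ranked 5th by fold and 4th by width of the 1621. The KO peaks lay wholly inside it and covered 2202 bp. At the KO summit with most tags the ratio of KO to Ctrl tags was 0.667, and its exact interval of 0.380 to 1.15 includes equality. That KO summit lay 338 bp from the Ctrl summit. The KO summit with 19 tags lay 243 bp from it, and its ratio of 0.528 had an interval of 0.286 to 0.945. The KO summit with 16 tags lay 1976 bp away, so its tags and the Ctrl tags were counted at different places and no ratio is drawn from them. The whole locus also lies inside Gm46405, an lncRNA model on the same strand, whose own start window is 6202 bp from the Ctrl peak. No peak overlapped Gm46406, an lncRNA on the opposite strand just past the far end of Sox4.

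Sox6 and Sox13 encode SoxD factors, which lack an activation domain of their own. In mouse fetal muscle Sox6 represses slow fibre genes. At Sox6 (Gene ID 20679, chromosome 7, 115470872 to 116040776, minus strand) the KO list held no peak, and the nearest lay 17081 kb away. The Ctrl list held 3, in a stretch of 3580 bp interrupted by gaps of 208 and 224 bp. Their fold enrichments were 10.9, 7.19 and 9.88, with 25, 16 and 23 tags. Nfia and Zeb2 also held 3 Ctrl peaks, and 3 or more occurred at 0.192% of all protein-coding genes. The first Ctrl peak, from 116031073 to 116032764, overlapped 225 of the 300 bases of a Sox6 start window. It also covered all 572 bp of Sox6os, an lncRNA on the opposite strand whose 300-base start window lay entirely inside the peak and held 26 CpG dinucleotides. Its summit lay 62 bp past the Sox6os start and at -994 bp from the nearest listed Sox6 start, which is upstream of it.

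Sox13 (Gene ID 20668, chromosome 1, 133382300 to 133424459, minus strand) showed the opposite pattern. In KO muscle it held a peak of 292 bp, the lowest width in the list and one that other peaks share. Its summit lay 322 bp past the single listed start and 569 bp inside the upper end of the gene. The fold enrichment there was 5.37, with 16 tags (9.15 to 26.0) and a rank by fold of 145 of 161. No Ctrl peak lay nearer than 185 kb. With a -log10 q of 2.26 it was the only one of the 6 genes with KO peaks to lose its peak at a threshold of 3.

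Sox7 encodes a SoxF factor of endothelial cells, and Sox9 a SoxE factor that drives cartilage formation and is also present in tendon progenitors. Both genes had no KO peak and 1 Ctrl peak across an end of the gene. At Sox7 (Gene ID 20680, chromosome 14, 63943706 to 63950732) the Ctrl peak was 562 bp wide, with a fold enrichment of 5.98 and 11 tags (5.49 to 19.7), and its summit lay outside the gene, at -87 bp from its lower end. At Sox9 (Gene ID 20682, chromosome 11, 112782210 to 112787757) it was 629 bp wide, with a fold enrichment of 5.37 and 15 tags (8.40 to 24.7), and its summit lay 109 bp inside the lower end. These were the lowest folds among the 16 Ctrl peaks, and both lay under the list's median of 6.37. Over the whole KO list, summits were listed down to 10 tags. More tags are needed where the local background used by the peak caller is higher. In Ctrl that background was 0.361 scaled tags at the Sox7 peak and 1.0 at the Sox9 peak, so 10 tags is not the limit at every place. KO tags where no KO peak was listed were not measured. Of 8 endothelial markers, Cdh5 and Flt1 had Ctrl PHF2 peaks (fold enrichments 5.98 and 6.02) and none had a KO peak. Of 5 tenocyte markers none had a peak in any list. The shares over all protein-coding genes were 7.38% in Ctrl and 0.713% in KO. The part of these cells in the Sox7 and Sox9 peaks was not tested.

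Nfia and Nfib encode NFI factors, which act in late differentiation of several tissues. The Nfib peaks lay at an end of the gene and the Nfia peaks far inside it. At Nfib (Gene ID 18028, chromosome 4, 82290173 to 82506751) the KO peak was 616 bp wide, with a fold enrichment of 6.10 and 23 tags (14.6 to 34.5). The Ctrl peak spanned 4393 bp, from 82503251 to 82507643, and was the widest of all 1621. It had a fold enrichment of 13.8 and 32 tags (21.9 to 45.2), and ran over the upper end of the gene to within 345 bp of the lncRNA Gm11266. The KO peak covered 14.0% of it, with summits 802 bp apart. The ratio of tags, counted at summits that far apart, was 0.719, with an interval of 0.402 to 1.27 that includes equality.

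At Nfia (Gene ID 18027, chromosome 4, 97578066 to 98118876, plus strand) the peaks lay deep inside the gene. The KO peak had its summit 195925 bp past the single listed start, a width of 580 bp, a fold enrichment of 6.19 and 12 tags (6.20 to 21.0). The Ctrl list held 3 peaks, with summits 170075, 175644 and 196018 bp past the start, fold enrichments of 6.45, 8.65 and 12.5, and 20, 18 and 29 tags. KO and Ctrl summits at the third of these were 93 bp apart. KO tags were 0.414 times Ctrl tags there, with an interval of 0.192 to 0.836 that does not include equality. It does include 0.725, the median ratio over all 114 Ctrl peaks with a KO peak. The first and second Ctrl peaks lay inside the lncRNA Gm38709, and the third overlapped its upper end by 696 bp. No peak overlapped the single listed start window of Nfia, where the lncRNA E130114P18Rik runs on the opposite strand. Starts of Nfia missing from the promoter table were not placed against the peaks.

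Zeb1 and Zeb2 encode E-box repressors best known from the epithelial to mesenchymal transition. Zeb2 is also a regulator of immune and neural crest cells. At Zeb2 (Gene ID 24136, chromosome 2, 44983512 to 45117442, minus strand) the KO peak was 594 bp wide, with a fold enrichment of 7.06 and 14 tags (7.65 to 23.5). The Ctrl list held 3 peaks of 3146, 526 and 881 bp, with fold enrichments of 9.92, 8.37 and 7.89 and 29, 16 and 15 tags, each of which touched at least 1 annotated start window. The KO summit stood 3 bp from the summit of the widest Ctrl peak, which is 7th by width in its list. Their tag ratio was 0.483, with an interval of 0.236 to 0.943. Zeb2os, named as an opposite strand transcript of Zeb2, contained the second Ctrl peak whole and 216 bp of the first, and no KO peak. Of 5 immune markers, Cd68 had a Ctrl PHF2 peak at a fold enrichment of 5.96 and none had a KO peak. Over all protein-coding genes the shares were 7.38% in Ctrl and 0.713% in KO. The part of immune cells in the Zeb2 peaks was not tested.

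At Zeb1 (Gene ID 21417, chromosome 18, 5591327 to 5775468) the KO list held no peak, and the Ctrl list held 2 within 1926 bp at the lower end of the gene. They were 597 and 920 bp wide, with fold enrichments of 6.37 and 10.3 and 14 and 20 tags. The weaker lay wholly within an overlap of Zeb1 with the lncRNA Gm10125, and the stronger began 115 bp beyond that lncRNA.

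Meox2 was the only gene of the 5 with peaks in both lists at which KO had the higher fold. At Meox2 (Gene ID 17286, chromosome 12, 37108540 to 37179534, plus strand) the KO peak was 882 bp wide, with its summit 855 bp past the start. Its fold enrichment of 11.6 was 2nd of 161. The Ctrl peak was 1628 bp wide, with its summit 975 bp past the start and a fold enrichment of 6.99 that ranked 554th of 1621. Summit tags numbered 24 in KO (15.4 to 35.7) and 20 in Ctrl (12.2 to 30.9), a ratio of 1.2 with an interval of 0.635 to 2.29. The local background that the peak caller divided by was 0.343 scaled tags in KO, the genome-wide value of that list, and 1.0 in Ctrl. With each list's genome-wide background in place of the local one, the folds were 11.6 in KO and 10.3 in Ctrl.

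**Figure D3:**
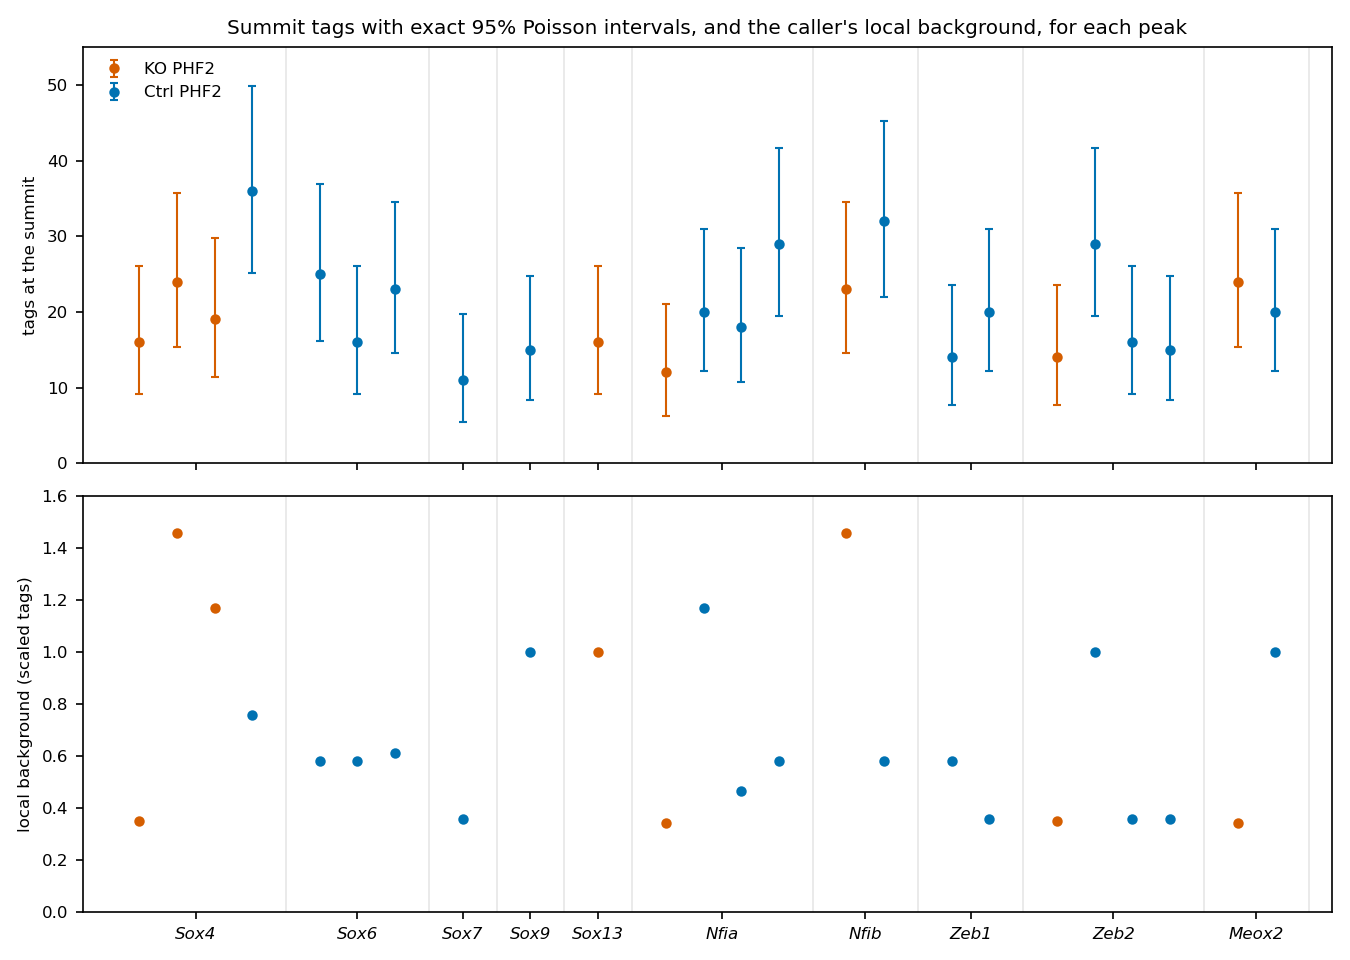
Tags at the summit of each PHF2 peak with exact 95% Poisson intervals (upper panel), and the local background at the same summit in tags times the list's scaling factor (lower panel), KO in orange left of Ctrl in blue for each gene. At Meox2 the KO and Ctrl tags, 24 and 20, have overlapping intervals while the backgrounds are 0.343 in KO and 1.0 in Ctrl. At Nfib the backgrounds are 1.46 in KO and 0.584 in Ctrl.

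Over all 10 genes, 7 of the 8 KO peaks overlapped a Ctrl peak, against 75.8% of the whole KO list. Of the 16 Ctrl peaks, 5 overlapped a KO peak (31.2%, Wilson interval 14.2 to 55.6), against 7.03% of the whole Ctrl list. The interval counts neighbouring peaks of a gene as independent. The genes were chosen on their peaks, so nothing is inferred from the contrast with the whole list. Those 5 were the widest peak of each of Sox4, Nfia, Nfib, Zeb2 and Meox2, and they ran from 1628 to 4393 bp and from 20 to 36 tags. The other 11 ran from 456 to 1692 bp and from 11 to 25 tags. KO tags were lower in 4 of the 5 pairs and higher at Meox2, with a median KO to Ctrl ratio of 0.667. Over all 114 Ctrl peaks with a KO peak, these 5 included, the median was 0.725. KO tags were lower at 94 of the 114, higher at 15 and equal at 5. A ratio exists only where a KO peak was listed, so the other 11 Ctrl peaks at these genes have none. The 5 pairs include Nfib, where the summits lay 802 bp apart. With only summits within 500 bp of each other the median at the 10 genes was 0.575. The KO to Ctrl ratio of PHF2 library sizes was estimated at 1.013, as the ratio of genome-wide background to scaling factor in the 2 lists, which assumes the same fragment length and genome size in both calls. The interval of the tag ratio lay below equality at Nfia and Zeb2, included equality at Nfib and Meox2, and at Sox4 depended on which of the nearer KO summits was used. Each of these intervals also included the whole-list median of 0.725, and nothing is inferred from their place against equality. These intervals were not adjusted for the 7 pairs of summits, which were chosen with the values known.

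Most Ctrl peaks at the 10 genes were wider and of higher fold than the median of their list. Their median width was 910 bp, beside 505 bp for all Ctrl peaks, and 15 of 16 were above the value for all. Their median fold enrichment was 8.51, beside 6.37, and 13 of 16 exceeded it. Of the 9 Ctrl peaks wider than 3000 bp, 3 lay at Nfib, Sox4 and Zeb2. KO peaks at the genes had a median width of 623 bp, beside 451 bp for all KO peaks, with 7 of 8 above it, and a median fold of 6.27, beside 6.64, with 3 of 8 above it. In position, 7 of the 16 Ctrl peaks lay within 1 kb of an end of a protein-coding gene, against 71.0% of the whole list. The other 9, at Sox6, Nfia, Zeb1 and Zeb2, lay farther inside their genes. An end here is an outer end of the gene body, so these peaks can still lie at a start. Among them, the first Sox6 peak and the first and second Zeb2 peaks overlapped listed start windows of their own genes.

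**Figure D4:**
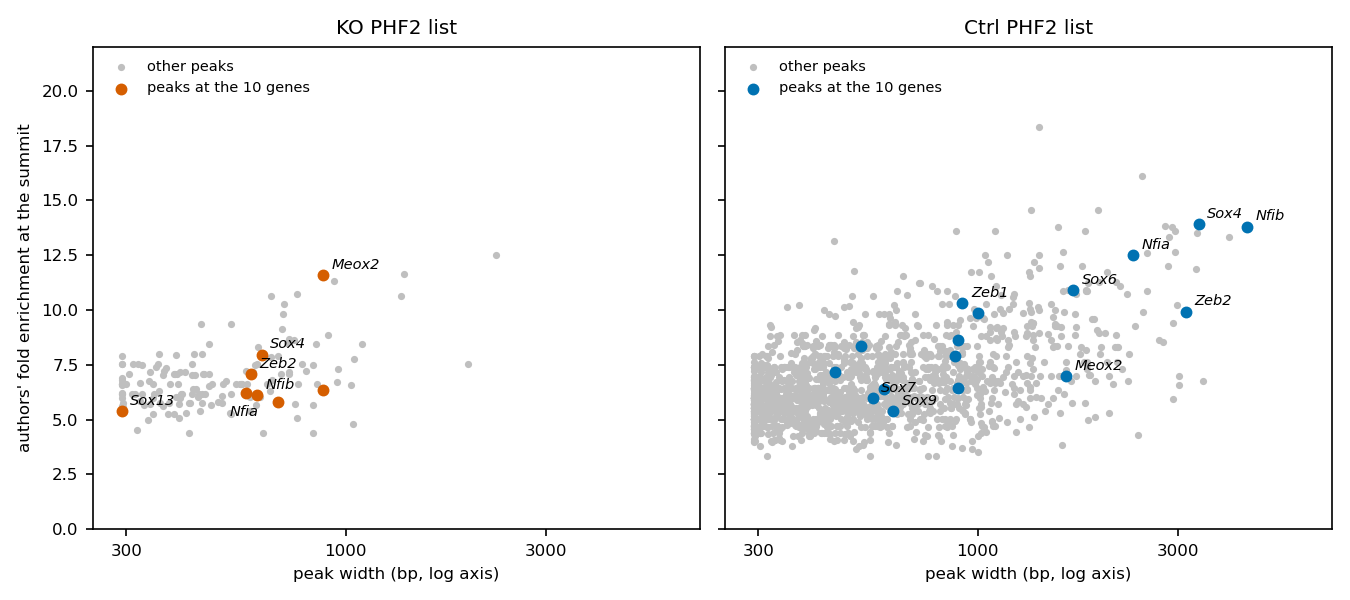
Width (log axis) against the authors' fold enrichment for every peak of the KO PHF2 list (left) and the Ctrl PHF2 list (right), with the peaks at the 10 genes coloured and the strongest of each gene named. Nfib, at 4393 bp, is the widest Ctrl peak, and Meox2, at a fold of 11.6, is 2nd in KO.

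Relatives and partners of these factors, listed with earlier results of these data known, were counted in the same window, beside the 0.713% of all genes with a KO PHF2 peak and the 7.38% with a Ctrl PHF2 peak. A count of 0 in lists this short lies near those shares, and no list was tested. Of the 15 other Sox genes none had a peak in any list, Sox17 and Sox18, the endothelial relatives of Sox7, and Sox5, the close relative of Sox6, included. Among Nfic, Nfix and Meox1 only Nfix, which in the mouse drives the switch to fetal muscle genes, had a peak, in Ctrl (fold enrichment 7.18, 15 tags). Of 14 E-box factors and ZEB corepressors, 3 had a KO PHF2 peak: the ZEB corepressor gene Ctbp2 (9.81), the zinc finger gene Snai2 (6.19) and the E-protein gene Tcf12 (6.15). In Ctrl 3 had one: the E-protein gene Tcf4 (12.5), Ctbp2 (8.83) and Tcf12 (6.34). Of 7 SOX cofactors, Tcf7l2 (10.9) and Ep300 (4.66) had Ctrl peaks and none had a KO peak.

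Among other homeobox and Eya genes of limb and muscle development, Lbx1, which marks migrating limb muscle precursors, had no KO PHF2 peak and 2 Ctrl PHF2 peaks, the strongest at a fold enrichment of 10.6. Prrx1, of limb mesenchyme, had no KO peak and 2 Ctrl peaks with the strongest at 11.5. Eya1, which encodes a transcriptional coactivator, had no KO peak and 1 Ctrl peak at 6.94, and the homeobox gene Six4 had no KO peak and 1 Ctrl peak at 5.10. None of 11 slow fibre genes that Sox6 represses, Myh7 and Tnni1 among them, had a peak in any list. None of 8 epithelial genes that ZEB proteins repress, Cdh1 and Epcam among them, had one either.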

How the data were processed

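CUT&RUN libraries (4 groups of 1 library each, assigned from the sample titles) were analysed from the authors' peak lists. The submitters' processing notes name Bowtie2, MACS2 and the mm10 build. Not given in the sources used here were software versions, duplicate handling and the control library. Each peak name carries 1 library, so peaks were called per library. In the deposited lists the fold enrichment is a ratio over the caller's local background, the -log10 p and -log10 q are the authors' own, and the score is the whole part of 10 times the -log10 q. Positions and summits were written 1-based.

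Tags were solved from fold = (pileup + 1) / (background + 1) and the Poisson p. In both PHF2 lists every distinct pair of values gave whole tags, within 0.005, times 1 factor (KO 0.609 over 84 pairs, Ctrl 0.649 over 309). Simple multiples and fractions of each factor were set aside, and no other factor searched passed 32.1% in KO or 27.5% in Ctrl. More than 1 number of tags fitted at 5 KO and 50 Ctrl peaks, none of them at the 10 genes, and the closest fit was taken. The method was checked on simulated peaks. Genes and start windows came from RefSeq GRCm38.p6, with 6 of the 10 genes in the start table. Overlap meant at least 1 bp. Poisson and binomial intervals are exact, except the Wilson interval named, and cover counting error only.

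The members, gene lists and alternatives were chosen with earlier results of these data known. Named genes were the 10 members, other genes at their peaks and listed genes with a peak. Neighbouring or listed genes named as having no peak were chosen after their values were seen. One listed gene, and the count of its list, is not reported here. With 1 library per group no test was run. Scripts ran in Python 3.11.15 with pandas 2.3.3, NumPy 2.4.6 and SciPy 1.17.1, and figures were drawn in matplotlib 3.10.9.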

Additional observations from a re-analysis of the deposited data

How the results depend on the processing

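Across 10 counts and medians, 47 of 48 alternatives stayed close to the reported value (counts within 1.5 times, medians of width and fold within the 95% order-statistic interval over the 16 peaks, and the tag ratio within the range of the 5 pairs). They covered windows of 0, 1 and 10 kb, the summit alone, a -log10 q of at least 3, merged peaks, other overlap rules, other distances to a gene end, other scalings of the tag ratio and the strongest peak of each gene alone. Several could not have differed. The windows had to give the same values, because every peak touched a gene body and the next lay 32.9 kb or more away. A tag ratio from only some of the 5 pairs cannot leave their range. The strongest peak of each gene alone moved the median Ctrl width to 1692 bp, against 910 bp over all 16, and the median Ctrl fold to 10.3, against 8.51. These lie inside their intervals, which are wide at 16 peaks. The exception was a reciprocal overlap of at least 50%, under which 1 of the Ctrl peaks at these genes, at Meox2, met a KO PHF2 peak in place of 5, because the KO peaks cover small parts of wide Ctrl peaks. Ctrl peaks limited to the -log10 p of the weakest KO peak, and folds recomputed with the genome-wide background, were chosen after seeing the data. Leaving out a replicate could not be tried with single libraries. No paired analysis was possible because there was 1 library per group. Summits of 11 to 36 tags limit the precision of every comparison.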

Other observations

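Sox4 also had a Ctrl PHF2 peak 64.2 kb outside the gene (chromosome 13, 28884369 to 28884713, fold enrichment 7.41), with no protein-coding gene within 1 kb. Apart from Sox4 and Nfib, the next Ctrl PHF2 peak was between 185 kb (Sox13) and 3697 kb (Zeb2) away. The next KO PHF2 peak was at least 1856 kb away at every one of the 10 genes, the nearest being at Sox13.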
